A study of Mus musculus with 9 samples.

Results

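Transcript levels of 10 genes of the visual cycle and the retinal pigment epithelium were compared between whole mouse eyes of A/J, BALB/c and C57BL/6J. They are Rpe65, Lrat, Rdh5, Rlbp1, Rgr, Stra6, Rdh8, Rdh12, Rbp3 and Abca4. The genes were chosen by symbol, all 10 were found, and they are 10 of the 13089 genes listed for each library. A/J mice are albino, as are BALB/c mice, whereas C57BL/6J mice have pigment, and the labels call the animals of all 3 strains wild type. Each strain had 3 libraries of poly(A) RNA, called A/J 1 to 3, BALB/c 1 to 3 and C57BL/6J 1 to 3 after their labels. Each library was made from the pooled RNA of 5 female mice aged 4 weeks, and the labels name no further treatment, light exposure or allele. Nothing in the labels tells whether each strain's libraries came from separate pools of mice, so every p-value measures the spread between libraries, which may be technical. The series set out to examine eyes of backgrounds whose retinas degenerate at different rates.

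The visual cycle regenerates the light-sensitive chromophore of the photoreceptors. Light turns 11-cis-retinal bound to opsin into all-trans-retinal, which photoreceptors reduce to retinol and pass to the retinal pigment epithelium, the cell layer behind the retina, where it is esterified, isomerised and oxidised back to 11-cis-retinal. Loss of several of these genes causes inherited retinal disease in humans, and in mice the pace of the cycle is known to set how easily bright light damages the retina.

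The strains are known to differ in the coding sequence of Rpe65, which encodes the isomerase of the cycle. C57BL/6J carries a methionine at residue 450 of the protein and BALB/c a leucine, and the methionine form is known from mouse work for lower protein abundance and slower regeneration of visual pigment. The sources used here do not give the allele of A/J. The reference genome is that of C57BL/6J, and the coding sequence around this residue is shown because it marks the known difference between the strains; the capitals mark codon 450 of 533, bases 1348 to 1350 of the coding sequence on chromosome 3 (GENCODE, GRCm38).
Rpe65 codon 450: aagctctgtaagATGaacgtcaaaact

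Promoters are shown for Rpe65, a gene of the pigment epithelium, and for Rbp3 and Abca4, genes of the photoreceptors, because these genes had opposite patterns over the libraries. The 10 genes as a set did not divide by cell type in this way. Each runs from 250 bases before to 50 bases after the start site (RefSeq, GRCm38.p6), read on the gene's strand, and RefSeq held promoters for 10 of the 10 genes. Capitals mark TAATCC, the core letters of the motif bound by Crx and Otx2, homeobox factors of photoreceptors and pigment epithelium; the search covered both strands, so the motif reads GGATTA on the strand shown.
Rpe65, chr3:159598931-159599230, plus strand: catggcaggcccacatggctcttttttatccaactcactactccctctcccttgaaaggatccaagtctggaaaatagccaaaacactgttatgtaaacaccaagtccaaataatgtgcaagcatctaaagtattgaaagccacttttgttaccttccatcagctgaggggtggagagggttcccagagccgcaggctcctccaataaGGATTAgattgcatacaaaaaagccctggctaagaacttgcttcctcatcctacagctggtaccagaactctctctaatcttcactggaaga
Rbp3, chr14:33953753-33954052, plus strand: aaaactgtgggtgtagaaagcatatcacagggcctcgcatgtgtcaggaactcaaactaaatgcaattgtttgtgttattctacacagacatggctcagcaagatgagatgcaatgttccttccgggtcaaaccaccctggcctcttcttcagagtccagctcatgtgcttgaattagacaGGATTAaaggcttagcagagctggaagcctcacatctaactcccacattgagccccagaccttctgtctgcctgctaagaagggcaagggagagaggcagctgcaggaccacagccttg
Abca4, chr3:122044210-122044509, plus strand: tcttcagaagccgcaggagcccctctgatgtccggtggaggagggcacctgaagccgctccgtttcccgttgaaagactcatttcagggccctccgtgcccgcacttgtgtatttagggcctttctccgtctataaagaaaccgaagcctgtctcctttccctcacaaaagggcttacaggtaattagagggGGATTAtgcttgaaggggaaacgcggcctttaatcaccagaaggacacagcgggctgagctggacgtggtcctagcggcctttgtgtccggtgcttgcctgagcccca
In all, 4 of the 10 genes had the motif in this window, with its first base at -42 from the start site in Rpe65, -167 in Rgr, -69 in Rbp3 and -58 in Abca4. Stra6 had 4 promoters, none with the motif, and each other gene had 1. The motif was found in 7.06% of all 32841 promoters of the same length, a share of promoters and not of genes. CACGTG, the E-box read by Mitf and Usf factors, was in none of the promoters of the 10 genes and in 7.15% of all promoters. A match in letters is a description of the window and not a measured binding site.

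Expression is given as deposited RPKM, reads scaled to transcript length and to the size of the library, a scale on which levels of different genes can be set side by side. The files give no read counts, so the depth behind a value is unknown and no counting interval could be given. No header names the unit; RPKM times transcript length came to 96.7 to 99.4% of the total that RPKM implies in 8 libraries but to 114.3% in C57BL/6J 3, so values are least sure to be on one scale there. Several libraries stood apart before any gene was considered. On the first principal component of all tested genes, which held 49.1% of the variance, A/J 1 lay at -42.4, A/J 2 at -51.4 and C57BL/6J 3 at 56.4, while the other 6 libraries lay between -7.82 and 14.8. Each library's deviation from the mean of the 9 was correlated by rank, across genes, with the GC content of the transcript. This correlation was -0.66 in A/J 1 and -0.73 in A/J 2, against 0.46 in A/J 3. It was 0.11, 0.57 and 0.57 in BALB/c 1 to 3, and -0.31, 0.24 and 0.40 in C57BL/6J 1 to 3. Lens crystallins took 42.2 to 45.1% of the RPKM sum in the A/J libraries, 48.9 to 50.2% in those of BALB/c and 29.6 to 43.9% in those of C57BL/6J. Of 16 other genes of the pigment epithelium looked for, 12 were listed, without Best1, Kcnj13, Mfrp and C1qtnf5. None of the 12 was at 0. Their summed level was 539 to 574 RPKM in the A/J libraries, 499.6 to 522 RPKM in those of BALB/c and 678 to 805 RPKM in those of C57BL/6J. In C57BL/6J 3 the sum held 126 RPKM of Trpm3. The summed level of 9 pigment genes, also expressed by melanocytes, overlapped, at 1048 to 1319 RPKM in A/J, 1203 to 1319 RPKM in BALB/c and 1019 to 1374 RPKM in C57BL/6J. The levels below belong to whole eyes, in which fewer cells of a type and less RNA per cell cannot be told apart.

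All 10 genes were well expressed, and their order by level was much alike in the libraries. Rgr, Rbp3 and Rlbp1 held the 3 highest places in 8 of the 9 libraries; in A/J 2, Rpe65 was the third and Rbp3 the fourth. Lrat held the lowest place in 7 libraries and Rdh8 in A/J 1 and A/J 2. Rpe65 held place 4, 3 and 5 of the 10 in A/J 1 to 3, place 6 in every BALB/c library, and place 6, 6 and 8 in C57BL/6J 1 to 3.

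**Figure D1:**
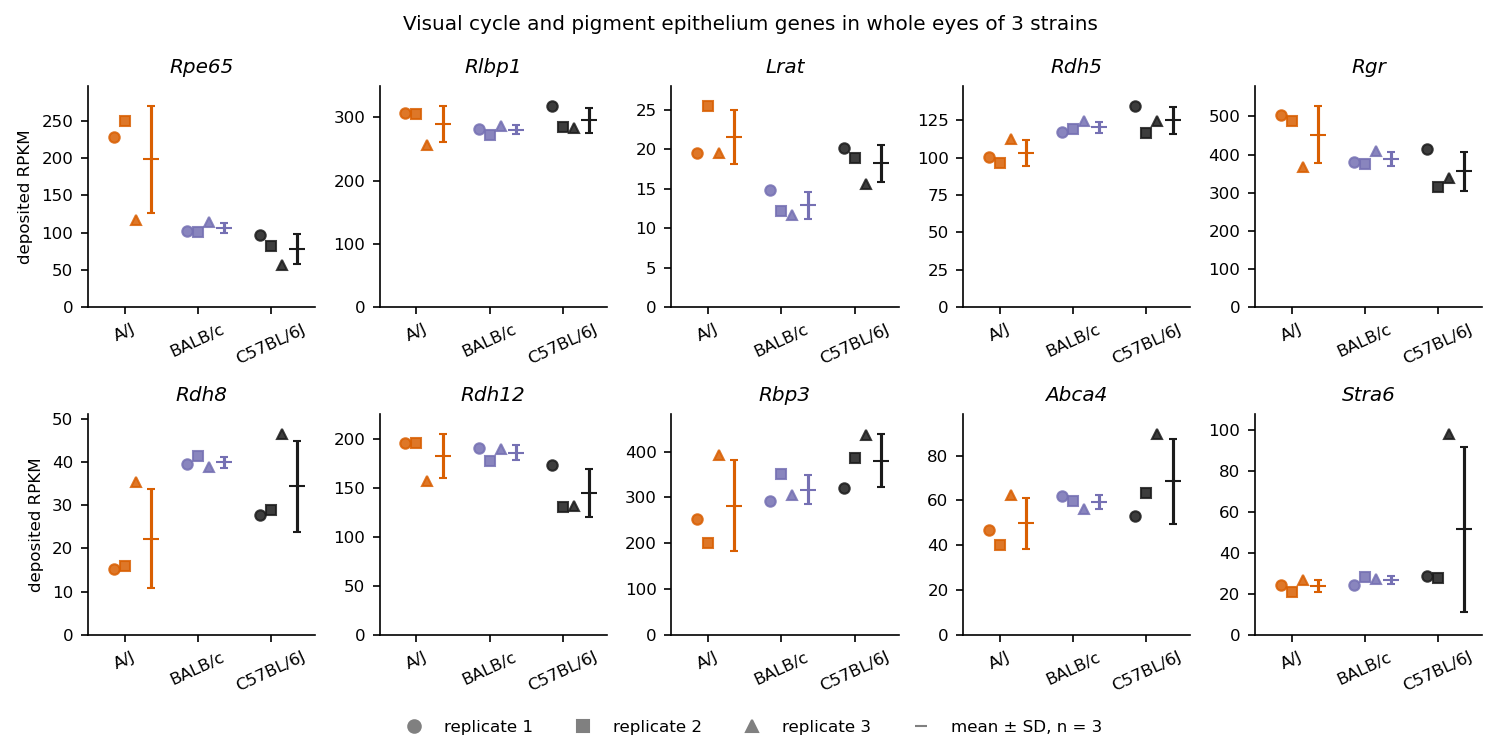
Deposited RPKM of the 10 genes in each library (y axis, from 0) for A/J, BALB/c and C57BL/6J (x axis), with a marker per replicate and the mean with its SD (n = 3) beside the points. Rpe65 was highest in A/J 1 and A/J 2 (229 and 249.9 RPKM), Rdh8 lowest in the same libraries (15.3 and 15.9 RPKM), and Stra6 stood apart in C57BL/6J 3 (98.0 RPKM).

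With all 9 libraries in one limma fit, none of the 10 genes passed a Benjamini-Hochberg adjusted p of 0.05 in any comparison. This call was made for 2.69% of the 12920 tested genes between A/J and C57BL/6J, for 3.09% between BALB/c and C57BL/6J, for 2.48% between A/J and BALB/c, and for 4.47% in the F test of any difference among strains. Unadjusted p was under 0.05 for 3, 1 and 4 of the 10 genes in these 3 comparisons and for 4 in the F test, against 17.5, 13.8, 20.9 and 20.3% of all tested genes. The median log2 change of the 10 genes was -0.05 for A/J minus C57BL/6J, 0.12 for BALB/c minus C57BL/6J and -0.17 for A/J minus BALB/c, against medians of -0.01 over all genes tested in each. The comparisons share libraries and are not independent of one another. Counted on deposited RPKM without a test, the A/J and C57BL/6J libraries did not overlap for 3 of the 10 genes (Rpe65 higher, Rdh5 and Stra6 lower in A/J), against 16.3% of all genes. BALB/c and C57BL/6J did not overlap for 3 (Rpe65 and Rdh12 higher, Lrat lower in BALB/c), against 33.4%, and A/J and BALB/c for 4 (Rpe65 and Lrat higher, Rdh5 and Rdh8 lower in A/J), against 33.1%. After scaling by size factors, the scale of the fit, A/J and C57BL/6J did not overlap for 3 (Rpe65 and Lrat higher, Stra6 lower in A/J), against 16.4% of all genes. On that scale BALB/c and C57BL/6J did not overlap for 4 (Rpe65, Rgr, Rdh8 and Rdh12, all higher in BALB/c), against 25.2%, and A/J and BALB/c for 3 (Lrat higher, Rdh5 and Rdh8 lower in A/J), against 29.2%.

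**Figure D2:**
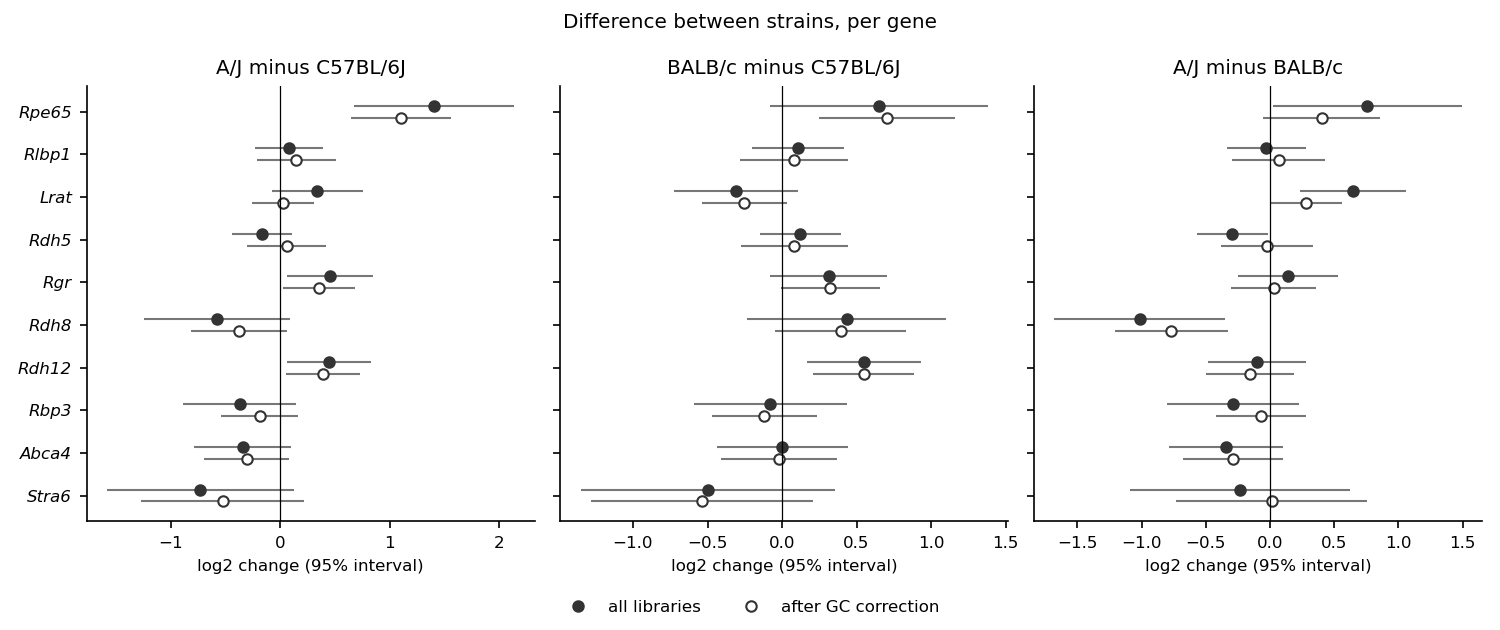
Log2 change with its 95% interval (x axis) for each of the 10 genes (y axis) for each pair of strains, from limma fits to all libraries before (filled) and after (open) a correction of each library for GC content. Rpe65 lay farthest from 0 for A/J minus C57BL/6J (1.41 before and 1.11 after the correction), and Rdh8 farthest for A/J minus BALB/c (-1.01 and -0.77).

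Rpe65, the isomerase that turns all-trans-retinyl esters into 11-cis-retinol, had 229, 249.9 and 117 RPKM in A/J 1 to 3, 102, 101 and 114 RPKM in BALB/c 1 to 3, and 96.5, 81.7 and 56.05 RPKM in C57BL/6J 1 to 3. The A/J libraries were the highest, but A/J 3 lay close to BALB/c 3, and the C57BL/6J libraries were the lowest, so that no 2 strains overlapped on this scale. The means were 199 ± 71.7 RPKM in A/J, 106 ± 7.01 RPKM in BALB/c and 78.1 ± 20.5 RPKM in C57BL/6J (SD, n = 3 each). After scaling by size factors A/J 3, at 115.5 RPKM, lay among the BALB/c libraries, at 108 to 120.2 RPKM, while A/J and BALB/c both stayed above C57BL/6J. The level in A/J was 2.54 times that in C57BL/6J as a ratio of means, and the log2 change was 1.41 (SE 0.32, 95% interval 0.68 to 2.14), with an adjusted p of 0.060 that missed the threshold. BALB/c minus C57BL/6J was 0.65 (interval -0.08 to 1.38, adjusted p = 0.44) and A/J minus BALB/c was 0.76 (interval 0.03 to 1.49, adjusted p = 0.23). Without C57BL/6J 3, BALB/c minus C57BL/6J was 0.37 (adjusted p = 0.68). A/J minus BALB/c was 0.40 (adjusted p = 0.33) after a correction of each library for GC content. It was 0.55 (adjusted p = 0.63) without A/J 2 and 1.12 (adjusted p = 0.016, 34.6% of genes called) without A/J 3.

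The call for Rpe65 between A/J and C57BL/6J depended on how the libraries were treated. With a correction of each library for GC content the log2 change was 1.11 (interval 0.65 to 1.56, adjusted p = 0.017; 4.0% of genes called), and the F test then gave an adjusted p of 0.027 for Rpe65, with 6.42% of genes called. Quantile normalization gave 1.42 (adjusted p = 0.042; 2.59% of genes called). Without A/J 3 the change was 1.77 (adjusted p = 0.0063), with 28.2% of genes called. Without A/J 1 it was 1.25 (adjusted p = 0.27), without A/J 2 it was 1.20 (adjusted p = 0.23), and without both, so that A/J 3 stood alone, it was 0.67 (adjusted p = 0.69). Without C57BL/6J 3, the lowest library, it was 1.13 (adjusted p = 0.14), and with only A/J and C57BL/6J libraries in the fit it was 1.41 (adjusted p = 0.24). The direction held in all 20 alternatives run, and the adjusted p was under 0.05 in 6 of them. Among the 6 were the fit without A/J 3 and the fit without both A/J 3 and C57BL/6J 3. The latter was chosen after the data were seen, and 39.4% of genes were called in it.

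**Figure D3:**
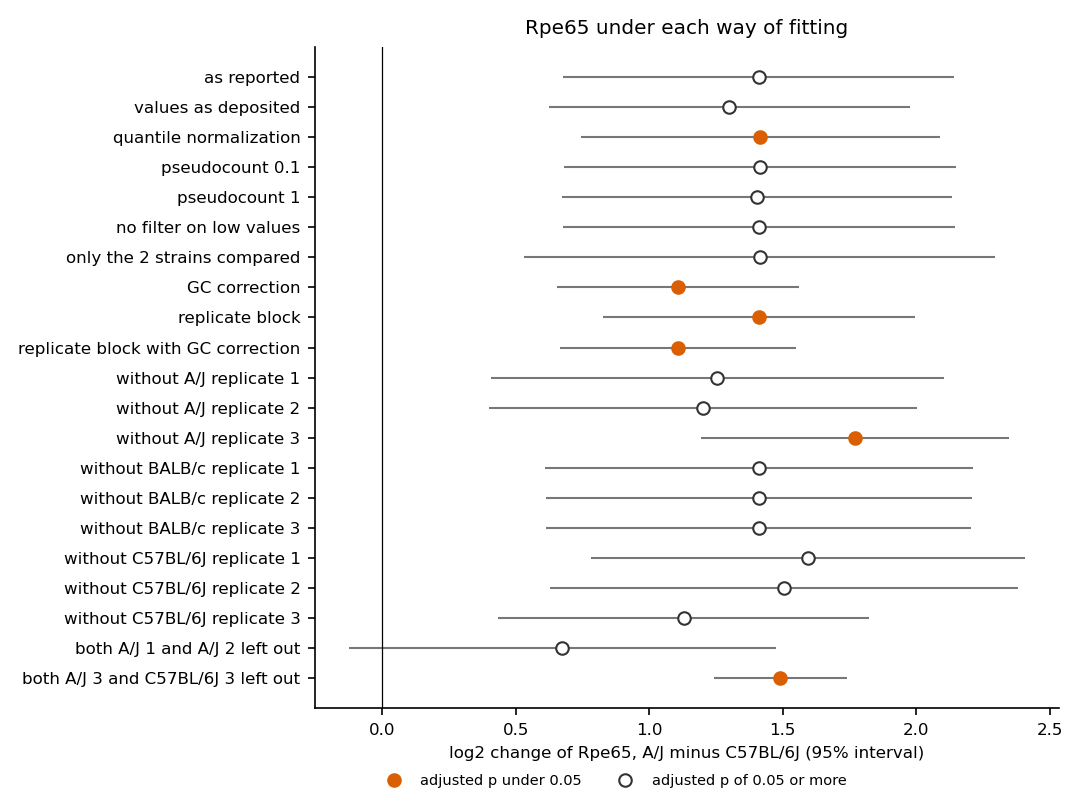
Log2 change of Rpe65 for A/J minus C57BL/6J with its 95% interval (x axis) under each way of fitting (y axis), filled where the adjusted p was under 0.05. The change lay between 0.67 and 1.77 in the 20 alternatives and was 1.41 as reported in the top line.

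Lrat, which esterifies all-trans-retinol and so makes the substrate of Rpe65, had 19.6, 25.5 and 19.5 RPKM in A/J 1 to 3, 14.9, 12.2 and 11.6 RPKM in BALB/c 1 to 3, and 20.2, 18.9 and 15.6 RPKM in C57BL/6J 1 to 3. BALB/c was lowest, and its libraries did not overlap with either other strain as deposited. After scaling by size factors BALB/c still lay below A/J but overlapped with C57BL/6J, where C57BL/6J 3 had 13.4 RPKM on that scale. The log2 change for A/J minus BALB/c was 0.65 (interval 0.23 to 1.06, adjusted p = 0.12). It passed without C57BL/6J 3, a library of neither strain compared (0.65, adjusted p = 0.046), where 4.72% of genes were called. It also passed without A/J 3 (0.73, adjusted p = 0.026), where 34.6% of genes were called. After the GC correction it was 0.28 (interval -0.0017 to 0.57, adjusted p = 0.28), and in BALB/c minus C57BL/6J the change was -0.31 (interval -0.72 to 0.11, adjusted p = 0.54).

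Rdh5, the 11-cis-retinol dehydrogenase that completes the cycle in the pigment epithelium, had 101, 96.3 and 113 RPKM in A/J 1 to 3, 117, 119 and 124 RPKM in BALB/c 1 to 3, and 135, 117 and 125 RPKM in C57BL/6J 1 to 3. The A/J libraries lay below all others by little, and BALB/c and C57BL/6J overlapped. After scaling by size factors A/J stayed below BALB/c but overlapped with C57BL/6J. The log2 change was -0.29 for A/J minus BALB/c (interval -0.57 to -0.02, adjusted p = 0.22), -0.17 for A/J minus C57BL/6J (adjusted p = 0.41) and 0.12 for BALB/c minus C57BL/6J (adjusted p = 0.76). After the GC correction the first was -0.02 (interval -0.38 to 0.33, adjusted p = 0.96). Rdh5 overlaps its neighbour Bloc1s1, with 22.5% of its transcript's 31-base words found there, so its level is uncertain by the way reads were shared. The other 9 genes shared at most 4.16% with any other genes.

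Rlbp1 encodes CRALBP, the carrier of 11-cis-retinoids in pigment epithelium and Mueller glia, and was the most even of the 10. It had 306, 306 and 257 RPKM in A/J 1 to 3, 282, 273 and 286 RPKM in BALB/c 1 to 3, and 318, 285 and 283 RPKM in C57BL/6J 1 to 3. The strains overlapped in each comparison, and the highest library was 1.24 times the lowest. The 95% interval of the log2 change was -0.23 to 0.39 for A/J minus C57BL/6J, -0.20 to 0.42 for BALB/c minus C57BL/6J and -0.34 to 0.28 for A/J minus BALB/c, with a sign that turned under other scalings.

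Rgr, an opsin of pigment epithelium and Mueller glia that isomerises retinal in light, was the most abundant of the 10 in 6 libraries. It had 503, 488 and 367 RPKM in A/J 1 to 3, 382, 375 and 408 RPKM in BALB/c 1 to 3, and 414, 314 and 338 RPKM in C57BL/6J 1 to 3. A/J 1 and A/J 2 were the highest, but A/J 3 lay below BALB/c and within C57BL/6J. The log2 change for A/J minus C57BL/6J was 0.45 (interval 0.06 to 0.84, adjusted p = 0.24). With 1 library left out it lay between 0.36 without A/J 1 (adjusted p = 0.65) and 0.61 without A/J 3 (adjusted p = 0.028, 28.2% of genes called). For BALB/c minus C57BL/6J it was 0.31 (adjusted p = 0.49). These libraries overlapped as deposited. After scaling by size factors they lay in separate ranges (401 to 430 RPKM in BALB/c, 291 to 396 RPKM in C57BL/6J), as did 25.2% of all genes.

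Stra6, the cell-surface receptor that takes up retinol from its plasma carrier, had 24.4, 20.7 and 26.5 RPKM in A/J 1 to 3, 24.5, 28.3 and 27.3 RPKM in BALB/c 1 to 3, and 28.9, 27.5 and 98.0 RPKM in C57BL/6J 1 to 3. One library, C57BL/6J 3, was far above the other 8. The log2 change for A/J minus C57BL/6J was -0.73 (interval -1.58 to 0.13, adjusted p = 0.32), or -0.20 (adjusted p = 0.60) without C57BL/6J 3, and for BALB/c minus C57BL/6J it was -0.50 (adjusted p = 0.65), or 0.03 (adjusted p = 0.94) without C57BL/6J 3. Genes of other lists were high in the same library, picked out after their values were seen. Trpm3, a channel of pigment epithelium, had 126 RPKM there against at most 23.5 RPKM in the other 2 C57BL/6J libraries. Dhrs3, a retinal reductase, had 96.8 RPKM against at most 53.3, and Crx had 356 RPKM against at most 181. Further genes of the same lists were lowest there of the C57BL/6J libraries, among them Timp3 (133 RPKM), Rdh10 (52.6 RPKM) and Otx2 (54.9 RPKM). The part of any of these genes in the Stra6 value was not tested.

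Rdh8, a reductase of all-trans-retinal in the photoreceptor outer segment, had 15.3, 15.9 and 35.4 RPKM in A/J 1 to 3, 39.6, 41.4 and 38.9 RPKM in BALB/c 1 to 3, and 27.7, 28.8 and 46.5 RPKM in C57BL/6J 1 to 3. A/J 1 and A/J 2 were the lowest of the 9 libraries, all A/J libraries lay below all BALB/c libraries, and C57BL/6J overlapped with both. After scaling by size factors all BALB/c libraries also lay above all C57BL/6J libraries. The log2 change was -1.01 for A/J minus BALB/c (interval -1.68 to -0.35, adjusted p = 0.13), -0.58 for A/J minus C57BL/6J (adjusted p = 0.32) and 0.43 for BALB/c minus C57BL/6J (adjusted p = 0.61). After the GC correction A/J minus BALB/c was -0.77 (adjusted p = 0.074). Without A/J 3 it was -1.38 (adjusted p = 0.0045, 34.6% of genes called), and A/J minus C57BL/6J was -0.95 (adjusted p = 0.014, 28.2% of genes called). Without A/J 1 they were -0.82 (adjusted p = 0.42) and -0.39 (adjusted p = 0.68).

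Rdh12, a retinal reductase of the photoreceptor inner segment, had 196, 196 and 157 RPKM in A/J 1 to 3, 191, 178 and 191 RPKM in BALB/c 1 to 3, and 174, 131 and 132 RPKM in C57BL/6J 1 to 3. BALB/c lay above C57BL/6J without overlap, while A/J overlapped with both. The log2 change for BALB/c minus C57BL/6J was 0.55 (interval 0.17 to 0.93, adjusted p = 0.16), the same after the GC correction (0.55, adjusted p = 0.082). For A/J minus C57BL/6J it was 0.45 (interval 0.07 to 0.83, adjusted p = 0.24). In that comparison it was 0.57 without A/J 3 (adjusted p = 0.039, 28.2% of genes called) and 0.32 without C57BL/6J 3 (adjusted p = 0.46). Rdh8 and Rdh12 are both retinal reductases of photoreceptors, and the level of Rdh12 was 12.9, 12.4 and 4.45 times that of Rdh8 in A/J 1 to 3, 4.82, 4.29 and 4.90 times in BALB/c 1 to 3, and 6.27, 4.55 and 2.83 times in C57BL/6J 1 to 3.

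Rbp3 encodes IRBP, the retinoid carrier that photoreceptors secrete into the space between retina and pigment epithelium. It had 252, 200.1 and 392 RPKM in A/J 1 to 3, 291, 352 and 306 RPKM in BALB/c 1 to 3, and 319, 386 and 436 RPKM in C57BL/6J 1 to 3. A/J held the 2 lowest libraries and also the second highest, so the strains overlapped. The log2 change was -0.37 for A/J minus C57BL/6J (interval -0.88 to 0.14, adjusted p = 0.36), -0.08 for BALB/c minus C57BL/6J (adjusted p = 0.94) and -0.29 for A/J minus BALB/c (adjusted p = 0.44). Without A/J 3 it was -0.62 for A/J minus C57BL/6J (adjusted p = 0.035, 28.2% of genes called) and -0.54 for A/J minus BALB/c (adjusted p = 0.042, 34.6% of genes called). Without A/J 2 these were -0.16 (adjusted p = 0.79) and -0.081 (adjusted p = 0.90), and after the GC correction -0.19 (adjusted p = 0.50) and -0.068 (adjusted p = 0.86).

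Abca4, the outer segment transporter that clears retinal bound to phosphatidylethanolamine, had 46.7, 39.9 and 62.4 RPKM in A/J 1 to 3, 61.9, 59.9 and 56.0 RPKM in BALB/c 1 to 3, and 53.0, 63.1 and 89.7 RPKM in C57BL/6J 1 to 3. A/J 1 and A/J 2 were lowest and C57BL/6J 3 highest, and the strains overlapped. The log2 change was -0.34 for A/J minus C57BL/6J (interval -0.78 to 0.10, adjusted p = 0.34), 0.00 for BALB/c minus C57BL/6J (interval -0.44 to 0.44, adjusted p = 0.999) and -0.34 for A/J minus BALB/c (interval -0.79 to 0.10, adjusted p = 0.31). With 1 library left out, A/J minus C57BL/6J lay between -0.50 without A/J 3 (adjusted p = 0.069) and -0.19 without C57BL/6J 3 (adjusted p = 0.68), and A/J minus BALB/c between -0.50 without A/J 3 (adjusted p = 0.062) and -0.21 without A/J 2 (adjusted p = 0.73).

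Ratios within a library do not depend on how libraries are scaled. Rpe65 was 2.28, 2.59 and 1.04 times Rdh5 in A/J 1 to 3, 0.873, 0.850 and 0.917 times in BALB/c 1 to 3, and 0.717, 0.701 and 0.450 times in C57BL/6J 1 to 3. As deposited, Rpe65 thus stood above Rdh5 in every A/J library and below it in every other library. Such ratios still carry the GC trend, as the transcripts of Rpe65 and Rdh5 have 42.2 and 56.8% GC. After the GC correction Rpe65 also stood above Rdh5 in BALB/c 2 (log2 values 6.97 and 6.85) and BALB/c 3 (7.11 and 6.91). It stayed below Rdh5 in BALB/c 1 and in every C57BL/6J library. The ratio of Rpe65 to Rlbp1 was 0.673 ± 0.193 in A/J eyes, 0.378 ± 0.0184 in BALB/c eyes and 0.263 ± 0.0568 in C57BL/6J eyes (SD, n = 3 each). The ratio of Rpe65 to Rgr was 0.428 ± 0.0998 in A/J eyes, 0.273 ± 0.00578 in BALB/c eyes and 0.220 ± 0.0485 in C57BL/6J eyes (SD, n = 3 each). Neither ratio overlapped between strains, and how often ratios of other genes separate in this way was not counted. Lrat has nearly the GC content of Rpe65 (42.0% and 42.2%). Relative to it, Rpe65 was 11.7, 9.80 and 5.97 in A/J 1 to 3, 6.90, 8.30 and 9.80 in BALB/c 1 to 3, and 4.78, 4.33 and 3.59 in C57BL/6J 1 to 3. On this measure A/J and BALB/c overlapped, and every library of both was above every C57BL/6J library.

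**Figure D4:**
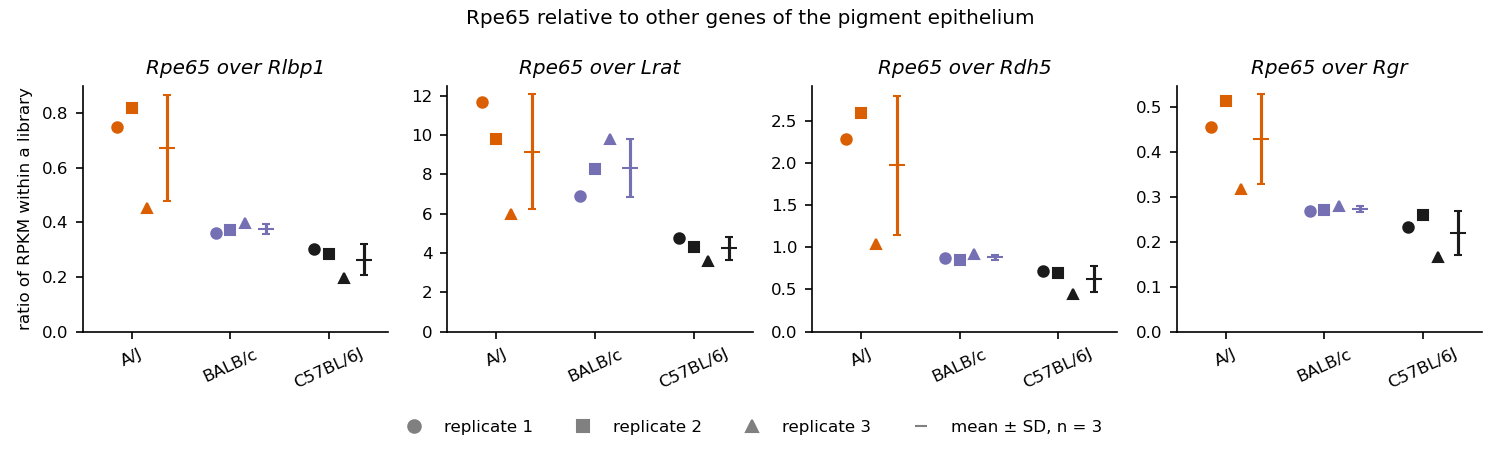
Ratio of the RPKM of Rpe65 to that of Rlbp1, Lrat, Rdh5 and Rgr within each library (y axis, from 0) for A/J, BALB/c and C57BL/6J (x axis), with a marker per replicate and the mean with its SD (n = 3). All 3 C57BL/6J libraries lie below all A/J and BALB/c libraries in each panel; A/J and BALB/c overlap over Lrat only.

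The spread within A/J was widest for Rdh8, Rpe65 and Rbp3, with coefficients of variation of 51.6, 36.1 and 35.3%, against 3.26, 6.62 and 10.0% in BALB/c. Across all genes, the difference between the mean of A/J 1 and A/J 2 and A/J 3 followed the GC content of the transcript, so each gene was set beside all tested genes within 1 percentage point of its GC content. Rpe65, at 42.2% GC, differed by 1.08 on the log2 scale, where the median of such genes was 0.54 and the 95th percentile 1.11. Rdh8, at 56.3% GC, differed by -1.12, where the median was -0.39 and the 5th percentile -1.08. Rpe65 thus lay just inside the range of 5th to 95th percentile and Rdh8 just outside it. Rbp3 (-0.76 against a median of -0.33) and Abca4 (-0.48 against -0.06) lay below the median and inside the range, and Rlbp1 (0.29 against -0.12), Rgr (0.48 against 0.19) and Rdh12 (0.36 against 0.11) lay above it and inside the range. Lrat, with the lowest GC content, differed by 0.23, below its median of 0.55.

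**Figure D5:**
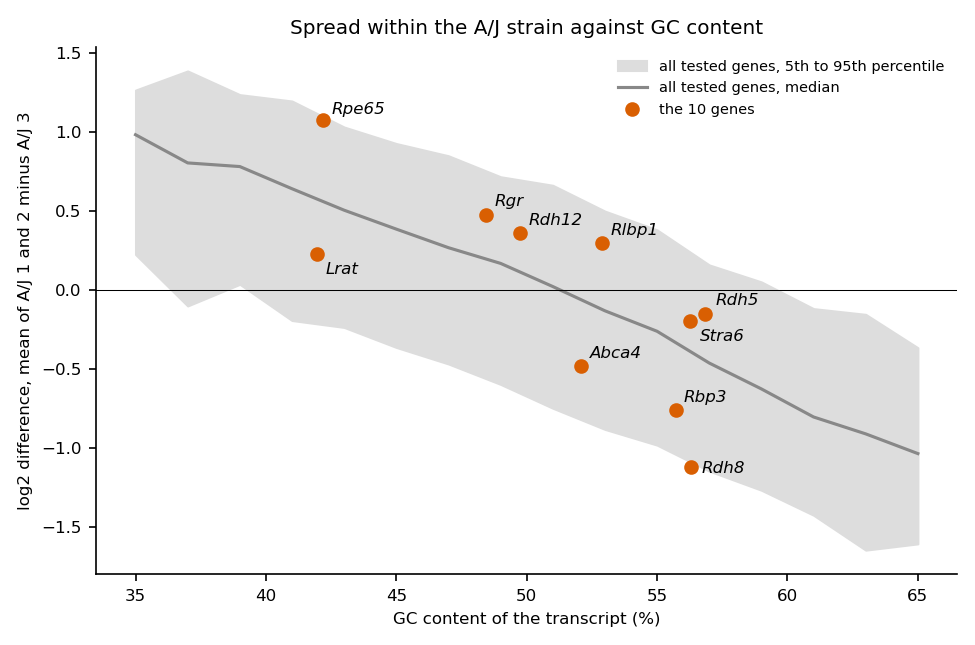
Log2 difference between the mean of A/J 1 and A/J 2 and A/J 3 (y axis) against the GC content of the transcript in percent (x axis), with the median (line) and the 5th to 95th percentile (band) of all tested genes and the 10 genes as points. Rpe65 (1.08) lies at the upper edge and Rdh8 (-1.12) at the lower edge of the band.

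The share of all genes called was far larger without A/J 3, and the counts for the 10 genes are read against it. Without A/J 3, 5 of the 10 passed between A/J and C57BL/6J (Rpe65, Rgr and Rdh12 higher, Rdh8 and Rbp3 lower in A/J), with 28.2% of all genes called. None passed between BALB/c and C57BL/6J (4.89% called; 3 of the 10 at an unadjusted p under 0.05, against 18.6% of all genes), 4 passed between A/J and BALB/c (Rpe65 and Lrat higher, Rdh8 and Rbp3 lower in A/J; 34.6% called) and 5 in the F test (32.8% called). With both A/J 3 and C57BL/6J 3 left out, an alternative added after the data were seen, 5 passed between A/J and C57BL/6J (39.4% called). For BALB/c minus C57BL/6J 4 passed (14.7% called), namely Lrat lower and Rpe65, Rdh8 and Rdh12 higher in BALB/c; the log2 change of Rpe65 was 0.37 (adjusted p = 0.038). For A/J minus BALB/c 8 passed (60.2% called) and in the F test 8 (61.6% called). Rlbp1 passed in none of these fits. With A/J 1 and A/J 2 left out instead, fewer genes were called than with all 9 libraries, 0.983% for A/J minus C57BL/6J and 0.538% for A/J minus BALB/c, and none of the 10 passed in limma's test (0 at an unadjusted p under 0.05 in both).

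Other genes of retinoid handling gave few calls in the fit of all 9 libraries. Of 7 further retinoid dehydrogenases tested, Rdh1 and Rdh9 were higher in A/J than in C57BL/6J, and the other 5 did not pass in any comparison. Rdh1 had 1.07, 1.02 and 1.25 RPKM in A/J 1 to 3, 0.62, 0.64 and 0.68 RPKM in BALB/c 1 to 3, and 0.10, 0.20 and 0.20 RPKM in C57BL/6J 1 to 3, in separate ranges, with a log2 change of 1.31 for A/J minus C57BL/6J (SE 0.13, adjusted p = 0.00057) and 0.86 for BALB/c minus C57BL/6J (adjusted p = 0.0069). Rdh9 had 1.69, 2.28 and 1.59 RPKM in A/J 1 to 3, 0.83, 0.94 and 0.90 RPKM in BALB/c 1 to 3, and 0.54, 0.54 and 0.57 RPKM in C57BL/6J 1 to 3, again in separate ranges, with 1.21 for A/J minus C57BL/6J (adjusted p = 0.0020) and 0.71 for A/J minus BALB/c (adjusted p = 0.040). Both genes reached the filter of 1 RPKM in 3 libraries through A/J alone, so their calls were favoured by the filter. With any 1 of the A/J libraries left out they were not tested. With no filter both kept their calls, but that fit cannot remove the selection. Every listed gene had a mean of at least 0.9967 RPKM in its highest strain, and both genes reached that level in A/J only. The call of Rdh1 for BALB/c minus C57BL/6J was lost without BALB/c 2 (0.86, adjusted p = 0.051) or BALB/c 3 (0.84, adjusted p = 0.056) and under quantile normalization (0.44, adjusted p = 0.16). That of Rdh9 for A/J minus BALB/c was lost without any 1 of the BALB/c libraries (0.67 to 0.74, adjusted p = 0.15 to 0.19) and without C57BL/6J 1 or C57BL/6J 2 (0.71 in both, adjusted p = 0.063 and 0.066) and with only the 2 strains in the fit (0.70, adjusted p = 0.060). Both are low, and the pseudocount of 0.5 makes these folds smaller than those of the RPKM. Both also resemble related genes, with 72.0% of the 31-base words of Rdh9 and 27.9% of those of Rdh1 found in other genes. With Rdh16f1 alone the shares were 68.3 and 14.7%, so reads of Rdh9 and Rdh1 may belong in part to other genes.

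None of 12 genes of retinoid binding, transport and storage passed in any comparison, nor any of 12 of retinoic acid synthesis, breakdown and receptors, 6 opsins, 12 further genes of the pigment epithelium, 9 pigment genes, 8 transcription factors, 8 of Mueller glia or 5 of vascular endothelium. Of the 72 genes of these lists, an unadjusted p under 0.05 was found by limma for 18 between A/J and C57BL/6J, 12 between BALB/c and C57BL/6J and 11 between A/J and BALB/c, against 17.5, 13.8 and 20.9% of all tested genes. Dct and Si, pigment genes also expressed by melanocytes, had log2 changes of 0.12 and 0.09 for A/J minus C57BL/6J (adjusted p = 0.63 and 0.79). Ttr, a plasma carrier of retinol-binding protein that pigment epithelium also makes, had a change of -0.21 (adjusted p = 0.61), and Aldh1a1, which oxidises retinal to retinoic acid, 0.64 (adjusted p = 0.28). Serpinf1 and Gas6, secreted factors of pigment epithelium, had changes of -0.22 and -0.36 (adjusted p = 0.48 and 0.26). For the same comparison Opn1sw, the short-wave cone opsin, had 0.01 (adjusted p = 0.96), the retinoic acid receptor partner Rxrb -0.27 (adjusted p = 0.55) and the desaturase Degs1 0.42 (adjusted p = 0.31). Nrl and Nr2e3, transcription factors of rods, had -0.43 and -0.01 (adjusted p = 0.26 and 0.94). Clu and Dkk3, from the list of Mueller glia, had 0.42 and 0.28 (adjusted p = 0.32 and 0.31), and the endothelial genes Plvap and Kdr -0.80 and -0.05 (adjusted p = 0.20 and 0.85).

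Of 14 rod genes, 11 had a log2 change below 0 for A/J minus C57BL/6J (median -0.28) and 9 for A/J minus BALB/c (median -0.32). The median over all tested genes was -0.01 in both. An unadjusted p from limma was under 0.05 for 5 and 9 of the 14, in either direction, against 17.5 and 20.9% of all tested genes. A/J 1 and A/J 2, which enter both comparisons, carry the GC trend given above, and the counts were not repeated without them. Sag passed as higher in A/J against C57BL/6J, and Guca1a passed as lower in A/J against BALB/c. Sag, the arrestin that ends the light response of rods, had 2382, 2903 and 2092 RPKM in A/J 1 to 3, 1752, 1675 and 1699.5 RPKM in BALB/c 1 to 3, and 1296, 1232 and 1134 RPKM in C57BL/6J 1 to 3, and a log2 change of 1.11 for A/J minus C57BL/6J (adjusted p = 0.0065). The call held without any 1 library, but not with A/J 1 and A/J 2 both left out (0.84, adjusted p = 0.19) or with only the 2 strains in the fit (1.11, adjusted p = 0.069). Guca1a, an activator of guanylate cyclase, had 371, 432 and 494 RPKM in A/J 1 to 3 against 679, 629.9 and 703 RPKM in BALB/c 1 to 3, a log2 change of -0.71 (adjusted p = 0.048). This call was lost without A/J 1 (-0.62, adjusted p = 0.22), without A/J 2 (-0.72, adjusted p = 0.16), without C57BL/6J 1 (-0.71, adjusted p = 0.073) and without any 1 of the BALB/c libraries (-0.68 to -0.74, adjusted p = 0.17 to 0.26), and it was lost after the GC correction (-0.49, adjusted p = 0.12), under quantile normalization (-0.42, adjusted p = 0.21), on the values as deposited (-0.64, adjusted p = 0.099) and with A/J 1 and A/J 2 both left out (-0.55, adjusted p = 0.57).

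Over the 9 libraries, on the log2 scale of the fit, 5 of the 10 genes lay on opposite sides, with Rpe65 and Rgr on one (Pearson r = 0.93) and Rbp3, Abca4 and Rdh8 on the other (0.87 for Rbp3 with Abca4, 0.86 for Rdh8 with Abca4), with -0.86 between Rpe65 and Abca4. The sides did not follow cell type. Rdh12, of photoreceptors, went with Rpe65 (0.79) and Rgr (0.91) and against Rbp3 (-0.60). Lrat and Rlbp1 went with Rpe65 (0.60 and 0.71), while Rdh5, of the pigment epithelium, and Stra6 went against it (-0.41 and -0.77). These correlations are descriptions over 9 libraries that share the GC trend given above. The genes most like Rpe65 were Fgf10 (0.99), Zcchc17 (0.99), Antxr2 (0.98), Lars (0.98) and Hells (0.98), and 465 genes reached at least 0.9. Those most like Abca4 were Igf2r (0.99), Odz4 (0.98), Tatdn2 (0.98), Chd8 (0.98) and Trim41 (0.98), and 700 genes reached at least 0.9. Both patterns were thus shared by many genes outside the visual cycle.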

How the data were processed

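The deposited files hold 1 RPKM value per gene and library. Per the submitters' processing notes, reads were handled with CASAVA 1.7 and GenomeStudio against the mouse build mm9; the treatment of reads shared by overlapping genes is not given in the sources used here. No header states a unit, and the authors' values were taken as RPKM from their sums, which fitted in 8 of the 9 libraries. The 12920 genes at 1 RPKM or more in at least 3 libraries (169 left out) were scaled by median-of-ratios factors and fitted as log2(RPKM + 0.5) with limma 3.58.1 in R 4.3.3, using its trend and robust options. The fit used all 9 libraries with a term for strain, and p-values were two-sided and adjusted over all genes by Benjamini-Hochberg; folds of low genes are understated on this scale. Calls are at an adjusted p under 0.05. The procedure was tested on simulated data with independent noise for each gene. The simulated data held no GC trend, so that test cannot tell how calls behave under the trend seen here. Alternatives were the values as deposited, quantile normalization, pseudocounts of 0.1 and 1, no filter, only the 2 strains compared, a lowess correction (span 0.3) for transcript GC content, a replicate block, and leaving out libraries. GC content came from GENCODE transcripts of GRCm38 and was known for 98.2% of genes; no coordinates were moved between builds. The 10 genes, all lists of other genes and the tests were chosen with earlier results of these data known. Named from the other lists were the called genes or, where none was called, the 2 with the highest mean level; 1 of these is not reported here.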

Additional observations from a re-analysis of the deposited data

How the results depend on the processing

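Of 600 log2 changes of the 10 genes recomputed under the alternatives, 536 kept their direction and side of the threshold, 31 kept their direction and newly passed, and 33 changed sign; none of these 33 was called. With 0 of 10 genes called in the fit as reported in each comparison, leaving out 1 library at a time gave 0 to 5 for A/J minus C57BL/6J, 0 for BALB/c minus C57BL/6J, 0 to 4 for A/J minus BALB/c and 0 to 5 in the F test, the upper values without A/J 3. For A/J minus C57BL/6J 1 gene, Rpe65, was called under quantile normalization, under the GC correction, with the replicate block (3.14% of all genes called) and with the block and the GC correction together (adjusted p = 0.023); it was also the 1 gene called by the F test under the last 3. With A/J 3 and C57BL/6J 3 both left out, chosen after the data were seen, the counts were 5, 4 and 8, and 8 in the F test.

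Correlations of same-numbered libraries' deviations from their strain means ran from -0.51 to 0.54. They were 0.34, 0.54 and 0.34 for number 1, -0.51, 0.0087 and 0.021 for number 2, and 0.24, 0.47 and 0.092 for number 3. Libraries with different numbers ran from -0.67 to 0.60. These values do not settle whether the replicate numbers mark pairs. With the replicate block the log2 change of Rpe65 for A/J minus C57BL/6J stayed at 1.41, with an adjusted p of 0.028; the block changed no other call among the 10 genes. Of the called genes of other lists, Rdh9 for A/J minus BALB/c missed the threshold with the block (adjusted p = 0.0502, or 0.0556 with the GC correction as well).

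Most values with a changed sign were near 0, but some started from larger changes in the fit as reported. Among these were -0.58 for Rdh8 and -0.37 for Rbp3 in A/J minus C57BL/6J, and -0.50 for Stra6 in BALB/c minus C57BL/6J. For values as deposited, A/J minus C57BL/6J was -0.031 for Rlbp1, BALB/c minus C57BL/6J -0.072 for Rlbp1, -0.055 for Rdh5 and -0.18 for Abca4, and A/J minus BALB/c 0.041 for Rlbp1. Under quantile normalization, BALB/c minus C57BL/6J was -0.023 for Rlbp1, -0.0030 for Rdh5 and -0.024 for Abca4, and A/J minus BALB/c 0.17 for Rlbp1 and 0.012 for Rdh12. With the GC correction, alone or with the block, A/J minus C57BL/6J was 0.059 for Rdh5, BALB/c minus C57BL/6J -0.019 for Abca4, and A/J minus BALB/c 0.068 for Rlbp1 and 0.014 for Stra6. With A/J 1 and A/J 2 both left out, A/J minus C57BL/6J was -0.14 for Rlbp1, 0.15 for Rdh8 and 0.12 for Rbp3, and A/J minus BALB/c -0.20 for Rgr and 0.20 for Rbp3. With A/J 3 and C57BL/6J 3 both left out, BALB/c minus C57BL/6J was 0.032 for Stra6, and A/J minus BALB/c 0.076 for Rlbp1 and 0.027 for Rdh12.
Leaving out 1 library at a time gave ranges across 0 for A/J minus C57BL/6J of Rlbp1 (-0.012 to 0.18), BALB/c minus C57BL/6J of Abca4 (-0.15 to 0.15) and Stra6 (-0.77 to 0.032), and A/J minus BALB/c of Rlbp1 (-0.087 to 0.073) and Rdh12 (-0.17 to 0.023).

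Scaling moved the median of all genes: as deposited it was -0.11 for A/J minus C57BL/6J and -0.17 for BALB/c minus C57BL/6J. The split of calls for BALB/c minus C57BL/6J was then 156 higher and 225 lower, against 250 and 149 as reported, and for A/J minus BALB/c 95 and 187, against 74 and 246. Calls over all genes were 348 for A/J minus C57BL/6J, 399 for BALB/c minus C57BL/6J, 320 for A/J minus BALB/c and 578 in the F test as reported. Without 1 library at a time they ran from 153 to 3630, 149 to 630, 79 to 4462 and 265 to 4232 in the same order. They were 138 for A/J minus C57BL/6J with only those strains fitted and 602 for BALB/c minus C57BL/6J with the GC correction. With A/J 1 and A/J 2 both left out they were 126 for A/J minus C57BL/6J, 69 for A/J minus BALB/c and 321 in the F test, and with A/J 3 and C57BL/6J 3 both left out 5043, 1877, 7700 and 7883.
The cause of these shifts was not tested. Depth is unknown from RPKM alone, and 3 libraries a strain limit the precision.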
